A study of Mus musculus with 8 samples.

Results

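The LIM homeobox genes encode transcription factors in which a pair of LIM domains, which bind partner proteins, precedes a homeodomain, which binds DNA. They act with the adaptor protein LDB1 and are used across the embryo to specify neurons, limb, pituitary, gonad, kidney and eye. Chromatin loops, topologically associating domains (TADs, stretches of DNA that contact themselves more than their surroundings) and binding sites of the insulator protein CTCF are the units in which the folding of such genes is usually described. The 10 genes described here are Lhx1, Lhx2, Lhx3, Lhx4, Lhx5, Lhx6, Lhx8, Lhx9, Lmx1a and Lmx1b, of 21887 protein-coding genes of the GRCm38.p6 gene table. They were chosen by their loops, as a family with earlier results of the same ES cell and lens loop lists known, so every value on their loops is a description and carries no test. A loop belonged to a gene when 1 of its 2 anchors overlapped the gene body widened by 5 kb on each side.

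Hi-C, which counts ligated pairs of DNA ends across the nucleus, was performed on v6.5 mouse embryonic stem (ES) cells of wild-type genotype, grown without feeder cells in LIF, and on lens epithelium and lens fiber cells of CD-1 mice at postnatal day 0.5 (P0.5). The 2 lens tissues were separated by hand under a microscope, with 30 lenses pooled for each replicate, and ES cell replicates were of about 2000000 cells each. All were crosslinked in 2.0% formaldehyde, and the 2 replicates of each of the 3 cell types were merged by the authors before loops and TADs were called, so no replicate error exists for any Hi-C value. CTCF ChIP-seq covered the 2 lens tissues alone, with 1 sample each from 200 pooled CD-1 lenses at P0.5. The authors' methods state 2 biological replicates, whereas the sample labels, followed here, give 1 sample per tissue. The ES cells are 1 cultured line of another background than CD-1, so that cell type, culture and strain cannot be told apart in any ES cell against lens comparison. Expression was not analysed here, and the identity of the dissected tissues was not tested.

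ES cells had far more loops at these genes than either lens tissue, and almost 1 in 2 of them spanned more than 3 Mb. The ES cell list held 57 loops at the LIM homeobox genes, of 8459 in all, against 11 of 8005 in lens epithelium and 10 of 7682 in lens fiber cells. These make up 0.674%, 0.137% and 0.130% of the lists. At least 1 loop was listed for 9 of the 10 genes in ES cells, where 36.9% of all protein-coding genes had one, for 6 in lens epithelium, where 35.8% had one, and for 6 in lens fiber cells, where 34.1% had one. For 8 of the 10 genes the ES cell list held more loops than either lens list, which was so for 16% of all protein-coding genes. The exceptions were Lhx3, which had no loop in any list, and Lmx1a, with 2 loops each in ES cells and epithelium and 1 in fiber cells.

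Loop size, measured between the midpoints of the anchors, differed between ES cells and lens at these genes. Of the 57 ES cell loops, 28 were longer than 3 Mb, a share of 49.1% where the whole list had 3.72%, and they made up 8.89% of the 315 ES cell loops of that length. They were spread over 7 of the 10 genes, whereas 1.85% of all protein-coding genes had such a loop. No lens loop at these genes passed 3 Mb. The epithelium list held 84 such loops and the fiber cell list 82, at 0.338% and 0.306% of protein-coding genes. At such shares a count of 0 among 10 genes does not set these genes apart in lens. The median size was 2450 kb in ES cells, with a range of 70 to 80850 kb, where the median of the list was 220 kb. It was 200 kb in epithelium, with a range of 60 to 550 kb, and 250 kb in fiber cells, with a range of 60 to 560 kb, beside list medians of 250 and 270 kb. When the 28 long loops were set aside, the remaining 29 ES cell loops had a median of 425 kb, against 210 kb in the list, and a largest size of 2450 kb. The plot of loop sizes by gene places every ES cell loop beside the lens loops of the same gene.

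**Figure D1:**
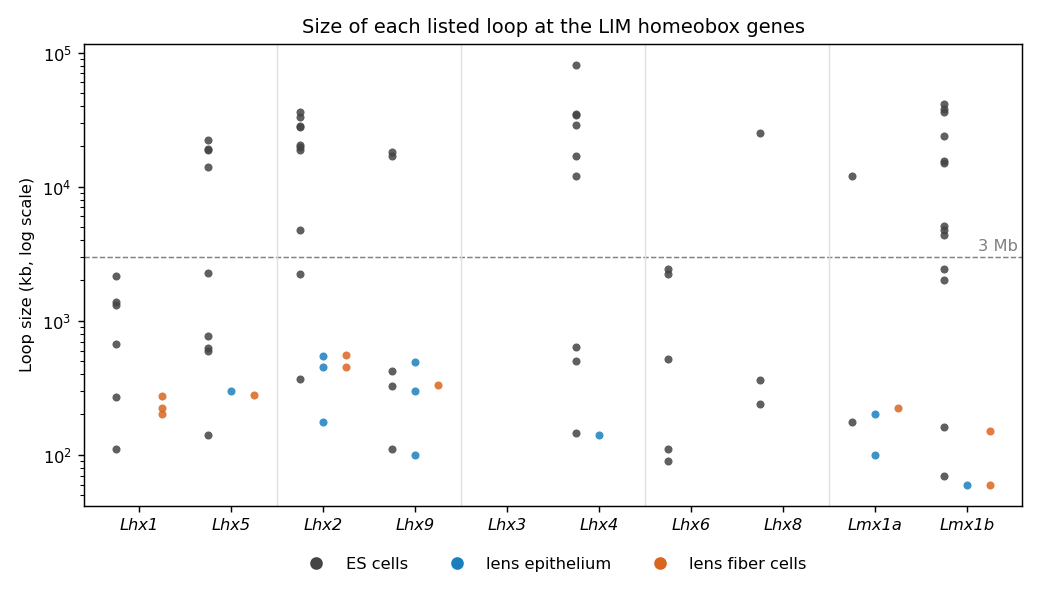
Size of each listed loop (kb, log scale) at the 10 LIM homeobox genes, ordered by paralog pair, in the 3 cell types. Each point is 1 loop, and a loop that joins 2 of the genes is drawn at both. All points above the dashed line at 3 Mb are ES cell loops, the lens points lie between 60 and 560 kb, and Lhx3 has no point.

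These genes were somewhat longer than others, with a median length of 24.2 kb against 17.2 kb for all protein-coding genes. Among the 13896 genes within their range of lengths, 41.1% had an ES cell loop and 1.80% had one above 3 Mb, close to the shares over all genes. In lens, 39.8% of those genes had a loop in epithelium and 37.7% in fiber cells.

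The long loops rested on few contacts, with fewer still expected from their surroundings. HiCCUPS, the loop caller, sets the observed contacts between 2 anchors against the contacts expected from the surrounding area. It lists a loop only where the observed contacts exceed the expected, so an excess follows from the listing itself. Where few contacts are expected only a high ratio can be listed, so ratios of long and short loops are not like for like. The 28 ES cell loops above 3 Mb had between 14 and 58 observed contacts with a median of 22, where 0.551 to 4.11 were expected. Observed over expected contacts ranged from 5.17 to 27.2 with a median of 14.1, and the median over all ES cell loops of that length was 11.2. For ES cell loops up to 3 Mb the median was 3.69 at these genes and 3.004 in the list. It was 2.86 at these genes in epithelium, against 3.05 in the list, and 2.34 in fiber cells, against 2.83. Of the long loops 25 had anchors 25 kb wide and 3 had anchors 10 kb wide, and all 28 kept a false discovery rate (FDR) below 0.01 against each of the 4 backgrounds that HiCCUPS uses. The depth of the maps was not taken from the files, which hold called features and not the maps, so a loop missing from a list says nothing of how many contacts the map holds there. The authors report similar totals of contacts for the cell types, with a larger share between chromosomes in both lens tissues than in ES cells. Its bearing on the loop counts was not tested.

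**Figure D2:**
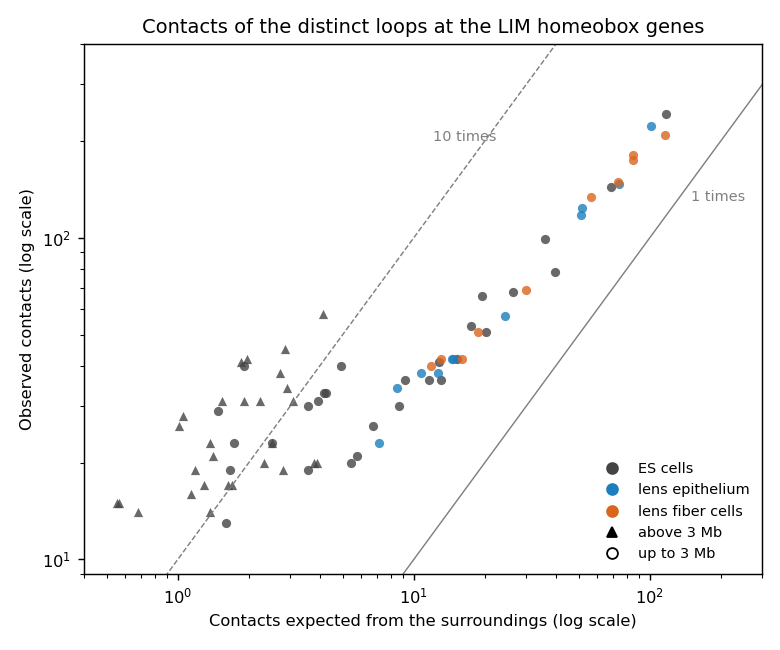
Observed contacts against the contacts expected from the surroundings, both on log scales, for each distinct loop at the LIM homeobox genes. Triangles are loops above 3 Mb and circles are shorter loops, and the lines mark observed contacts at 1 and 10 times the expected. The triangles, all from ES cells, hold 14 to 58 contacts where 0.551 to 4.11 were expected.

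Most gene-side anchors of the long loops held a start of the gene. RefSeq start sites were at hand for 9 of the 10 genes, all but Lhx5. The gene-side anchor held a start in 23 of 24 ES cell loops above 3 Mb and in 15 of 24 up to 3 Mb. In epithelium this was so for 4 of 10 loops and in fiber cells for 2 of 9. A loop between 2 of the genes was counted when the anchor at either gene held its start. Over the whole lists a protein-coding start lay in 49.7% of the anchors of ES cell loops above 3 Mb and in 15.2% of those of shorter ES cell loops, and in 16.8% and 16.5% of the anchors of lens loops up to 3 Mb. These shares count both anchors of every loop, whether or not they lie at a gene. Gene-side anchors lay within 5 kb of a gene by rule, so the counts and the shares are not like for like. The anchors are 5, 10 or 25 kb wide, and a wider anchor can meet a start more often.

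The 250 bases before the starts at which most of these loops ended are printed here, with those of Lhx3, which had no loop, for contrast. All come from the RefSeq promoter table of GRCm38.p6, are written 5′ to 3′ on the strand of the gene in lower case, and have every CG dinucleotide in capitals. The Lhx2 window lies at chr2:38351058-38351307 on the plus strand before the second of its 2 starts, the Lmx1b window at chr2:33641099-33641348, the Lhx4 window at chr1:155742028-155742277 and the Lhx3 window at chr2:26206576-26206825, these 3 on the minus strand.
Lhx2: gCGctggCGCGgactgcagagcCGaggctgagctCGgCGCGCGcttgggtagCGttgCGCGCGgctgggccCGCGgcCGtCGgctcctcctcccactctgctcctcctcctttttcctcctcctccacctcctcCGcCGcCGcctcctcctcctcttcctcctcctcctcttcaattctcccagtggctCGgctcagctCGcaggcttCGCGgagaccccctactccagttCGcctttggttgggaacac
Lmx1b: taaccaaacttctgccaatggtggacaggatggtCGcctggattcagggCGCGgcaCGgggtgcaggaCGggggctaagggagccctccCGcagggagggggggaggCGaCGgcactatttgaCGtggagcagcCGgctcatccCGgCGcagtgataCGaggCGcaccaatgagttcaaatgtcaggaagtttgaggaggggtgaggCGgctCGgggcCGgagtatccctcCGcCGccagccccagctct
Lhx4: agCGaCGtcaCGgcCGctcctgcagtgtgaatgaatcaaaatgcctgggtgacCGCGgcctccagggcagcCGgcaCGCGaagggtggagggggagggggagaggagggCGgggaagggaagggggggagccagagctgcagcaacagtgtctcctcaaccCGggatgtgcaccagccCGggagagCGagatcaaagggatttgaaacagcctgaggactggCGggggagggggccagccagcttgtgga
Lhx3: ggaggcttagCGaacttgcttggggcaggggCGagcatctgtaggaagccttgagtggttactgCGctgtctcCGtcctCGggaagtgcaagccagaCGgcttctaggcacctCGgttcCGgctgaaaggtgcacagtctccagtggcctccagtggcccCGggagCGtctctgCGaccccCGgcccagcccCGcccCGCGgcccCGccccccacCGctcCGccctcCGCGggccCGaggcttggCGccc

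Counted over the whole window of 300 bases, 250 before and 50 after the start, the second Lhx2 start had 29 CG, the Lmx1b start 24, the Lhx4 start 19 and this Lhx3 start 28. The median of the 32851 windows in the table was 7 CG, and 12.9%, 19.98%, 28.1% and 14.2% of all windows held as many as these 4 in turn. The first Lhx2 start had 34 CG and the Lhx1 start 31, while Lhx9 had 6 and Lhx8 had 4, the lowest of the 13 windows. The number of CG and the number of loops did not run in the same order over these starts, and no relation between them was tested. The Lmx1b start lay in 10 ES cell loop anchors, 8 of them of loops above 3 Mb, the second Lhx2 start in 6 with 5 above 3 Mb, and the Lhx4 start in 6 with 5 above 3 Mb. The Lhx1 start, with more CG than these 3, lay in 5 anchors and none above 3 Mb. The CG-rich Lhx3 start lay in none, and neither did the other Lhx3 start, with 13 CG. The CG-poor Lhx9 start lay in 3 anchors, 2 of them of long loops.

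Lhx1 and Lhx5 are close paralogs, of which Lhx1 is needed to form the head and the kidney and Lhx5 acts in the developing forebrain. Lhx1 (chromosome 11, 84517975 to 84525534) had 6 ES cell loops, and 2 of them ended at T-box genes. The loops of 1315 and 1370 kb ran to the neighbouring limb genes Tbx2, with 29 contacts where 1.47 were expected, and Tbx4, with 33 against 4.15. A loop of 2150 kb ended at Tmem132e, and the loops of 110 and 270 kb ended where no coding gene lies. None of its ES cell loops was in a lens list within 10 kb at both midpoints, where 43% of all ES cell loops were, and the one of 270 kb matched the fiber cell loop of 275 kb within 25 kb. Lens epithelium had no loop at Lhx1, and the 3 loops in fiber cells, of 200, 225 and 275 kb with 149 to 208 contacts, had at their far ends no coding gene or, for the one of 225 kb, Acaca, which encodes acetyl-CoA carboxylase.

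Lhx5 (chromosome 5, 120431886 to 120441457) reached T-box genes as well, and reached further. Its ES cell loops of 595 and 630 kb ended at Tbx5, the forelimb and heart T-box gene, with 33 and 31 contacts where 4.23 and 3.94 were expected. The loop of 765 kb ended at Tbx3 with 40 contacts, whose exact 95% Poisson interval of 28.6 to 54.5 covers counting error only, where 1.90 were expected. Beyond a loop of 2260 kb to Hrk, a cell death gene, 4 loops above 3 Mb joined Lhx5 to Barhl2 at 13.98 Mb with 26 contacts, Nkx6-1 at 18.78 Mb with 15, Uncx at 19.11 Mb with 28 and Tnrc18 at 22.38 Mb with 17. Barhl2, Nkx6-1 and Uncx are homeobox genes of neurons and, for Nkx6-1, of pancreatic beta cells. The expected contacts of these 3 loops were 1.01, 0.565 and 1.06. In lens a single loop per tissue went from Lhx5 to its neighbour Rbm19, at 300 kb in epithelium with 38 contacts and 280 kb in fiber cells with 42, and counted as shared between them. Of the 9 ES cell loops of Lhx5 none was in a lens list within 10 kb. The shares of the whole ES cell list were 44.4% up to 3 Mb and 6.67% above it. Within 25 kb the epithelium loop of 300 kb matched an ES cell loop that the rule did not place at Lhx5.

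Lhx2 and Lhx9 form a second pair. Lhx2 is required for the eye to form from the neural plate and Lhx9 for the gonad. Lhx2 (chromosome 2, 38339271 to 38369737) had 10 ES cell loops, and 8 were above 3 Mb, a number that 4 protein-coding genes including Lhx2 reached or passed. Toward the start of the chromosome they ended at the Bmi1 region at 19.65 Mb with 38 contacts, Skida1 at 20.33 Mb with 31, Sfmbt2 at 28.0 Mb with 17 and Gata3 at 28.45 Mb with 23. Bmi1 and Sfmbt2 encode Polycomb group proteins, and Gata3 is a zinc finger regulator of T cells, ear and kidney. Toward the other end they reached Nr4a2, a nuclear receptor of dopaminergic neurons, at 18.75 Mb with 17 contacts, Dlx1 and Dlx2 at 33.18 Mb with 34 and Hoxd9 to Hoxd12 at 36.35 Mb with 31. The remaining loops joined Lhx2 to Nr5a1, a nuclear receptor of gonad and adrenal, at 365 kb with 40 contacts, and to the family members Lhx6 and Lmx1b.

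The lens loops of Lhx2 all ended in a single neighbour. In epithelium they spanned 175, 450 and 550 kb with 147, 42 and 124 contacts, and in fiber cells 450 and 560 kb with 51 and 42 contacts. All 5 had their far anchor in Dennd1a, which encodes a regulator of membrane traffic, where no ES cell loop of Lhx2 ended. These anchors lay at separate places between 37800001 and 38200000, so the shared neighbour is 1 long gene and not 1 point of contact. The loop of 450 kb was the same in both lens lists within the tolerance of 10 kb.

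Lhx9 (chromosome 1, 138825186 to 138848839) had 5 ES cell loops, 3 to near neighbours and 2 to homeobox genes. The near ones reached Dennd1b, the paralog of the gene beside Lhx2, at 110 and 325 kb and Crb1, a retinal polarity gene, at 425 kb. The 2 long ones joined it to Lhx4 at 16.9 Mb with 21 contacts and to En1, a homeobox gene of midbrain and limb, at 18.23 Mb with 19 contacts where 1.18 were expected. Lens epithelium listed loops of 100, 300 and 490 kb and fiber cells a loop of 330 kb. The ES cell loop of 110 kb was also in the epithelium list and that of 325 kb also in the fiber cell list, so 2 of the 4 ES cell loops found in any lens list were at this gene. Dennd1b lay at an anchor in each of the 3 lists.

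Lhx3 and Lhx4 act together in the pituitary and in motor neurons, and had no loop and 9 loops in ES cells. Lhx3 (chromosome 2, 26200212 to 26208249) had no loop in any list, and the nearest listed anchor was that of an epithelium loop of 100 kb, 20.2 kb from the gene. Lhx4 (chromosome 1, 155698031 to 155751726) had 9 ES cell loops, 6 of them above 3 Mb, and 20 protein-coding genes including Lhx4 had as many or more. The loop to En1 spanned 35.13 Mb with 41 contacts where 1.85 were expected. Those to Hlx at 28.99 Mb and to Prox1 at 34.43 Mb had 14 and 19 contacts against 0.675 and 2.78. Prox1 is a homeobox gene that fiber cells need to elongate. The lens lists held no loop between Prox1 and Lhx4, where 6.67% of all ES cell loops above 3 Mb were in a lens list. At such a share the absence does not set this pair apart.

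The longest loop of all at these genes, of 80.85 Mb, ran from Lhx4 to an anchor with Fev, a regulator of serotonergic neurons, and Cryba2, which encodes a lens beta-crystallin. It rested on 15 contacts, with an exact 95% interval of 8.40 to 24.7, where 0.551 were expected. The other 2 long loops of Lhx4 reached its own family, Lmx1a at 11.95 Mb and Lhx9. The short ES cell loops ended at Acbd6 at 145 kb, BC034090 at 500 kb and Ier5 at 640 kb. In epithelium a loop of 140 kb with 42 contacts also ended in Acbd6. It matched the ES cell loop of 145 kb within 25 kb at both midpoints, but not within 10 kb. Lens fiber cells listed no loop at Lhx4.

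Lhx6 and Lhx8, which specify interneurons and cholinergic neurons of the forebrain, had loops in ES cells and none in lens. The 5 loops of Lhx6 (chromosome 2, 36081950 to 36105992) included no loop above 3 Mb. That of 90 kb ended 21.3 kb from the nearest coding gene, that of 110 kb ended 1.74 kb from Ptgs1, a cyclooxygenase gene, that of 520 kb ended in Dab2ip, and those of 2250 and 2450 kb joined Lhx2 and Lmx1b. Lhx8 (chromosome 3, 154306288 to 154330560) had 3 loops, among them 1 of 240 kb, to an anchor 1.52 kb from Tyw3, and 1 of 360 kb, to Slc44a5.

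Lmx1a and Lmx1b, which specify dopaminergic neurons together and of which Lmx1b also sets the dorsal side of the limb, differed in their ES cell loops, with 2 against 13. Lmx1a (chromosome 1, 167688230 to 167848741) had an ES cell loop of 175 kb with 243 contacts where 117 were expected and no coding gene at the far anchor, and the loop to Lhx4. Its epithelium loops of 100 and 200 kb had 222 and 118 contacts, and the fiber cell loop of 225 kb had 134. Both anchors of the loop of 100 kb overlapped the gene. Lmx1b (chromosome 2, 33560965 to 33641208) had 13 ES cell loops, the most of the 10 genes, and its 9 loops above 3 Mb were a number that no other protein-coding gene reached.

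The distant partners of Lmx1b were for the most part those of Lhx2. They were the Bmi1 region at 14.95 Mb with 42 contacts, Skida1 at 15.6 Mb with 31, Gata3 at 23.75 Mb with 16, Dlx1 and Dlx2 at 37.9 Mb with 58 and Hoxd9 to Hoxd12 at 41.05 Mb with 45. The 58 contacts to Dlx1 and Dlx2, with an exact 95% interval of 44.0 to 75.0 where 4.11 were expected, were the most of any long loop at these genes. Lhx2, Nr5a1 with Nr6a1 at 5075 kb and Lrp2 at 35.95 Mb completed the long loops, with 1 of 4375 kb that ended 1.90 kb from Ntng2. Shorter loops reached Prdm12, a zinc finger gene of pain-sensing neurons, at 2000 kb with 19 contacts and Lhx6 with Morn5 at 2450 kb.

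Lmx1b also had the one loop of the family found in all 3 lists within 10 kb at both midpoints. It spanned 70 kb in ES cells with 36 contacts where 13.0 were expected, and 60 kb in both lens tissues, with 57 contacts against 24.4 in epithelium and 69 against 30.0 in fiber cells. Its gene-side anchor lay just past the end of the gene and its far anchor held no coding gene. A loop of 160 kb in ES cells with 68 contacts matched a loop of 150 kb in fiber cells with 181. Within 25 kb a loop of Lmx1a and a loop of Lhx9 were in all 3 lists too. In ES cells, epithelium and fiber cells in turn they spanned 175, 200 and 225 kb at Lmx1a and 325, 300 and 330 kb at Lhx9.

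**Figure D3:**
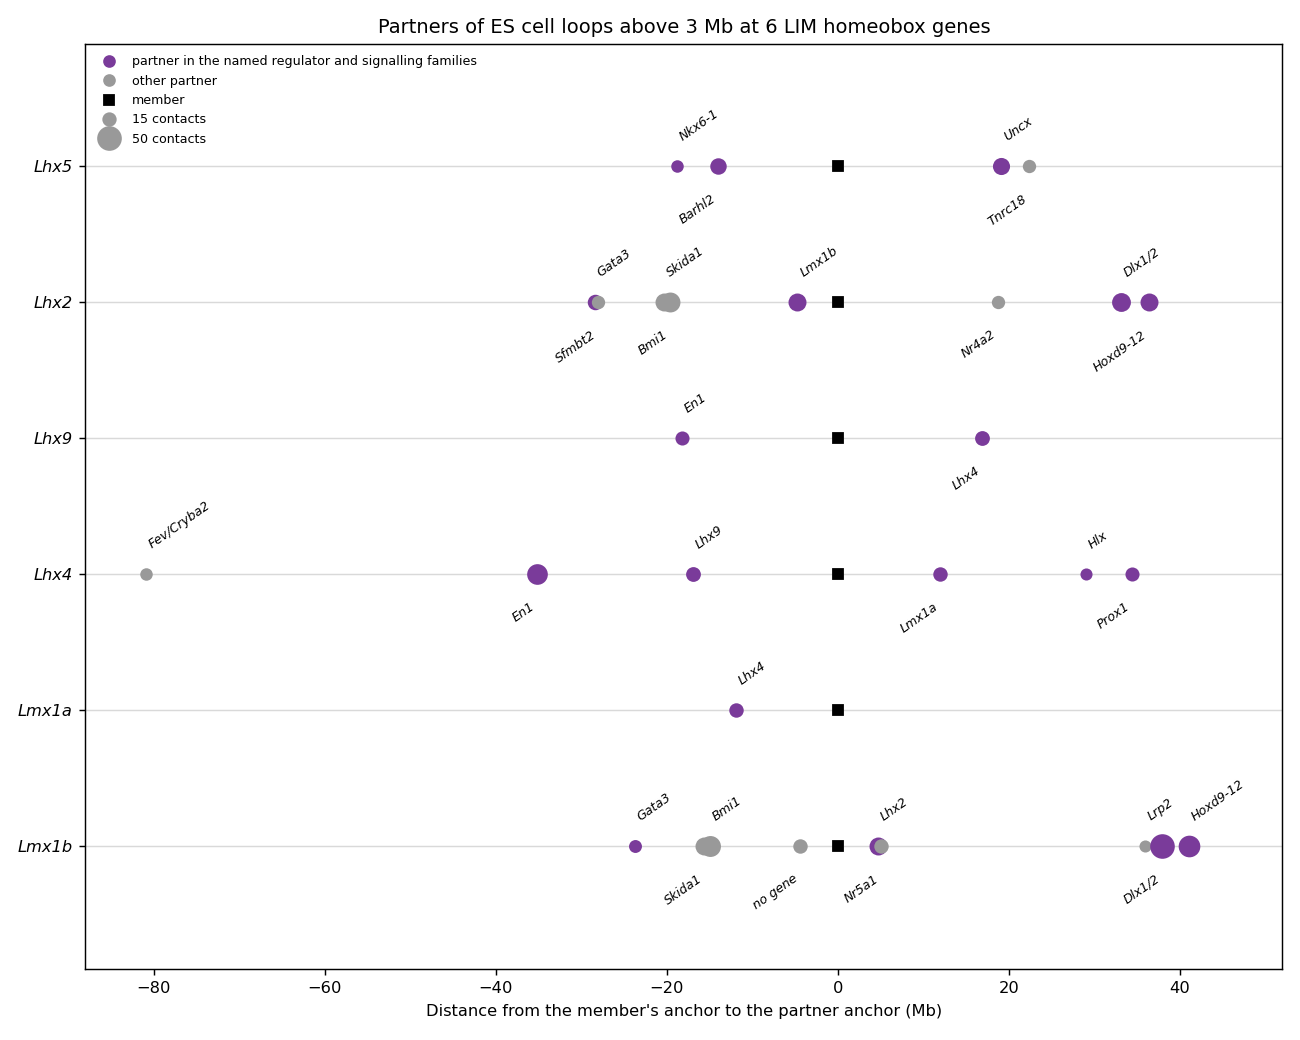
Distance (Mb) from 6 of the LIM homeobox genes to the partner anchors of its ES cell loops above 3 Mb, with genes at lower coordinates of the chromosome to the left. Each circle is a loop, its area follows the observed contacts, purple marks partners in the named regulator and signalling families, and only some of the genes of an anchor are written. Lhx2 and Lmx1b share partners on both sides, and the loop from Lhx4 to Fev and Cryba2 is the farthest at 80.85 Mb.

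Many partners of the ES cell loops were other regulators of development. A protein-coding gene overlapped the far anchor in 47 of 57 ES cell loops and in 27 of the 28 above 3 Mb, where 88.9% of all anchors of such loops did and 93.3% of those 25 kb wide. It did so in 20 of the 29 shorter ES cell loops, 7 of 11 loops in epithelium and 5 of 10 in fiber cells, beside 60.1%, 62% and 61.8% of all anchors of loops up to 3 Mb. An overlap with some coding gene thus came near the share of the lists. Partners were counted against 506 genes of named families, which were homeobox, Sox, forkhead, T-box, Gata, bHLH, zinc finger, Pax and signalling genes. A gene of these families lay at the far anchor in 17 of the 28 long ES cell loops and in 9 of the 29 shorter ones. In lens the only such case was the loop of 100 kb at Lmx1a in epithelium, where the partner was the gene itself, and there was none in fiber cells.

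Counted once for each gene and loop, the far anchor held such a gene in 20 of 31 cases above 3 Mb, while 48.7% of all anchors of ES cell loops above 3 Mb did. For shorter ES cell loops it was 11 of 31 cases, while 4.08% of all anchors did. In epithelium it was 1 of 11 cases against 2.39% of all anchors, and in fiber cells 0 of 10 against 2.41%. Long ES cell loops in general thus joined such genes too. Both counts include loops between 2 of the 10 genes, where each is the partner of the other.

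Loops between the LIM homeobox genes themselves were listed in ES cells only. The genes of each pair lie at least 2.26 Mb apart, and few lens loops were long, with 1.05% of the epithelium list and 1.07% of the fiber cell list above 3 Mb. Other homeobox pairs were not counted in lens, so the absence there cannot be read as particular to these genes. Of the 9 pairs that lie on 1 chromosome, 5 were joined in ES cells, 2 of 3 on chromosome 1 and 3 of 6 on chromosome 2. Among pairs of other homeobox genes on 1 chromosome within the same range of distances, 2.26 to 28.9 Mb, 35 of 306 were joined (11.4%). When both genes had an ES cell loop above 3 Mb, it was 34 of 58 pairs (58.6%) of other homeobox genes and 3 of 4 pairs of LIM homeobox genes. Pairs of genes from a cluster such as Hox share anchors, and a pair joined across more than 3 Mb meets the second condition through its own loop. On chromosome 2, Lhx6, Lhx2 and Lmx1b were joined in all 3 combinations. The loop of Lhx2 with Lmx1b spanned 4720 kb with 31 contacts against 1.92 expected, and that of Lhx2 with Lhx6 spanned 2250 kb with 23 against 2.50. The loop of Lhx6 with Lmx1b, of 2450 kb with 20 contacts against 5.41, was the weakest, at an FDR of 0.048 against the donut-shaped background. On chromosome 1, Lhx4 was joined to Lhx9 with 21 contacts against 1.41 and to Lmx1a with 20 against 2.31. Lhx9 and Lmx1a, which lie 28.9 Mb apart on either side of Lhx4, were not joined, and neither was Lhx3 with any of the other 3 on its chromosome, which lie 7.40 to 12.2 Mb away.

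Several partners were shared by 2 of the genes, and some of the distant ones were joined to each other. Lhx4 and Lhx9 both reached En1. Lhx2 and Lmx1b both reached Gata3, Skida1, the Bmi1 region, Dlx1 with Dlx2, and Hoxd9 to Hoxd12 across more than 3 Mb. Both also reached Nr5a1, Lhx2 at 365 kb and Lmx1b at 5075 kb. Since Lhx2 and Lmx1b lie 4.75 Mb apart on the same chromosome and are joined to each other, their partners are not independent observations. On chromosome 2, 6 of 42 pairs of distant partner anchors more than 3 Mb apart were joined by an ES cell loop, among them Gata3 with the Bmi1 region at 8.80 Mb with 49 contacts and Dlx1 with Hoxd9 to Hoxd12 at 3.15 Mb with 28. On chromosome 5, 3 of 6 pairs were joined, and Barhl2 reached Uncx across 33.08 Mb with 19 contacts where 0.696 were expected. On chromosome 1 this was 1 of 6, Hlx with Prox1 at 5.45 Mb with 24 contacts. Such joins were common among long ES cell loops. Counted anchor by anchor, with partners in the family included, 25 of 81 pairs of distant partners of these genes were joined by a loop above 3 Mb, beside 37.9% of 464 pairs at the 132 other anchors with at least 2 distant partners.

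Other families of developmental regulators also had long loops in ES cells. A loop above 3 Mb was listed for 76 of 186 other homeobox genes (40.9%), 8 of 17 T-box genes (47.1%), 4 of 6 Gata genes, 10 of 44 forkhead genes and 3 of 19 Sox genes. Signalling genes had one in 8 of 92 cases. No gene of any of these families had a lens loop above 3 Mb, where 0.338% of all protein-coding genes had one in epithelium and 0.306% in fiber cells. The 7 of 10 LIM homeobox genes with such a loop thus stood beside a share of 40.9% among other homeobox genes and of 1.85% among all protein-coding genes, and no test of the difference between families was made. The other homeobox genes were shorter, with a median length of 6.47 kb against 24.2 kb, and a longer gene can meet an anchor more often. The family plot gives the share for each.

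**Figure D4:**
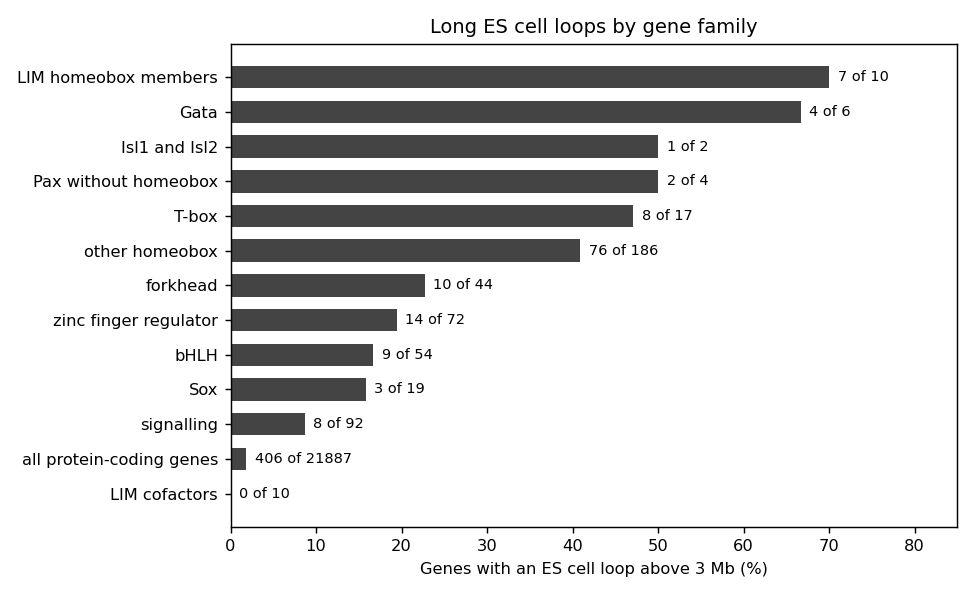
Share of genes (%) with at least 1 ES cell loop above 3 Mb, for the 10 LIM homeobox genes and for other gene families, with the number of genes beside each bar. The LIM homeobox genes stand at 7 of 10, the Gata genes at 4 of 6, all protein-coding genes at 406 of 21887 and the LIM cofactors at 0 of 10.

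No cofactor of LIM domain proteins had a loop above 3 Mb, which is a rare feature of genes in general. LDB1 and LDB2 bind LIM domains, SSBP2 to SSBP4 stabilise LDB proteins, LMO1 to LMO4 compete for LDB binding, and RLIM marks LDB proteins for degradation. Of these 10 genes, 6 had a loop in ES cells, 6 in epithelium and 7 in fiber cells, where 36.9%, 35.8% and 34.1% of all protein-coding genes had one. None had a loop above 3 Mb in any list, and since 1.85% of protein-coding genes had one in ES cells, a count of 0 among 10 genes does not set the cofactors apart. Their mean number of loops was 0.8 in ES cells, 1.4 in epithelium and 1.4 in fiber cells, where the LIM homeobox genes had 6.2, 1.1 and 1.0 and all protein-coding genes 0.643, 0.580 and 0.550. Ssbp2 had the most, with 2, 3 and 4 loops in turn, and its loop of 85 kb was listed in all 3 cell types. Ldb1, Rlim and Ssbp4 had no loop.

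The remaining LIM homeodomain genes, Isl1 and Isl2, which act in motor neurons, heart and pancreas, were not among the 10. Isl1 had 3 loops in each list, with the longest at 1850 kb in ES cells, 1025 kb in epithelium and 1075 kb in fiber cells, and its loop of 395 to 400 kb was found in all 3. Isl2 had 3, 2 and 1 loops, and a single one above 3 Mb, which reached Skor1 at 7.60 Mb in ES cells with 13 contacts.

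Few loops at the LIM homeobox genes were shared between ES cells and lens. Of the 57 ES cell loops 4 were in a lens list, 2 in epithelium and 3 in fiber cells, and none of the 4 was above 3 Mb. They were the 2 of Lhx9 and the 2 of Lmx1b described before. Over the whole ES cell list 43% were in a lens list, 35.9% in epithelium and 34.6% in fiber cells. Among loops up to 3 Mb it was 4 of 29 at these genes beside 44.4% of the list, and above 3 Mb 0 of 28 beside 6.67%. Of the 11 epithelium loops 4 were in another list, 3 of them in fiber cells, where 64.2% of the epithelium list was in another list and 55.5% in fiber cells. Of the 10 fiber cell loops 5 were in another list, 3 of them in epithelium, where 65.6% of the fiber cell list was in another and 57.8% in epithelium. With a tolerance of 25 kb in place of 10 kb these rose to 7 in ES cells, 8 in epithelium and 8 in fiber cells, and the shares of the lists to 52.9%, 78.2% and 80.6%.

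The border of the rule decided some of the short loops and none of the long ones. In 10 cases of a gene and a loop, at Lhx2, Lhx5, Lhx9 and Lmx1b, the anchor lay outside the gene body by 0.264 to 1.89 kb and was caught by the widening alone. Just outside the rule lay an ES cell loop of 325 kb with 167 contacts, 8.54 kb from Lhx5, and the epithelium loop near Lhx3. Without widening there were 54 loops in ES cells, 7 in epithelium and 7 in fiber cells.

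TADs touched these genes in each cell type. A TAD was listed over 8 of the 10 genes in ES cells, where 42.9% of protein-coding genes were touched by one, over 6 in epithelium (22.5%) and over 5 in fiber cells (31.3%). Lhx3, Lhx5, Lhx8 and Lhx9 had one in every list, and Lhx6 in none. The TADs had median sizes of 260, 322.5 and 310 kb, where the medians of the lists were 145, 335 and 135 kb. At Lhx8 the ES cell TAD was the larger, with 645 kb against 315 kb in epithelium and 310 kb in fiber cells. At Lhx1 the reverse was seen, with 295 kb in ES cells and 555 kb in epithelium, and no TAD was listed in fiber cells. At Lhx3 the sizes were 145, 120 and 125 kb and at Lhx5 225, 305 and 310 kb, in the order of ES cells, epithelium and fiber cells.

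TAD borders fell within gene bodies at several members. The ES cell TAD before Lhx2, of 530 kb from 37810001 to 38340000, ended 0.719 kb from the first start of the gene, while the epithelium TAD began at the same position and ran on to 38385000, so that it held the whole gene. Dennd1a, the partner of all lens loops of Lhx2, overlaps both TADs. The ES cell TAD at Lhx4, of 155 kb, ended within the gene 17.0 kb from its start. At Lhx9 the ES cell TAD of 535 kb held the gene, and both lens TADs, of 330 and 325 kb, began inside it, 12.4 and 7.44 kb from its start. The fiber cell TAD of 100 kb at Lmx1a ended inside that gene, and the ES cell TAD at Lmx1b, of 170 kb, ended 3.90 kb beyond its start.

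Both anchor midpoints lay in a single TAD for 10 of 57 ES cell loops, 6 of 11 epithelium loops and 1 of 10 fiber cell loops. Over the whole lists this was so for 32.4%, 27.9% and 31.8%. The 10 ES cell loops were among the 29 of at most 3 Mb, where the share in the list was 33.7%. The largest TAD at these genes was 645 kb, below the length of any loop above 3 Mb.

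**Figure D5:**
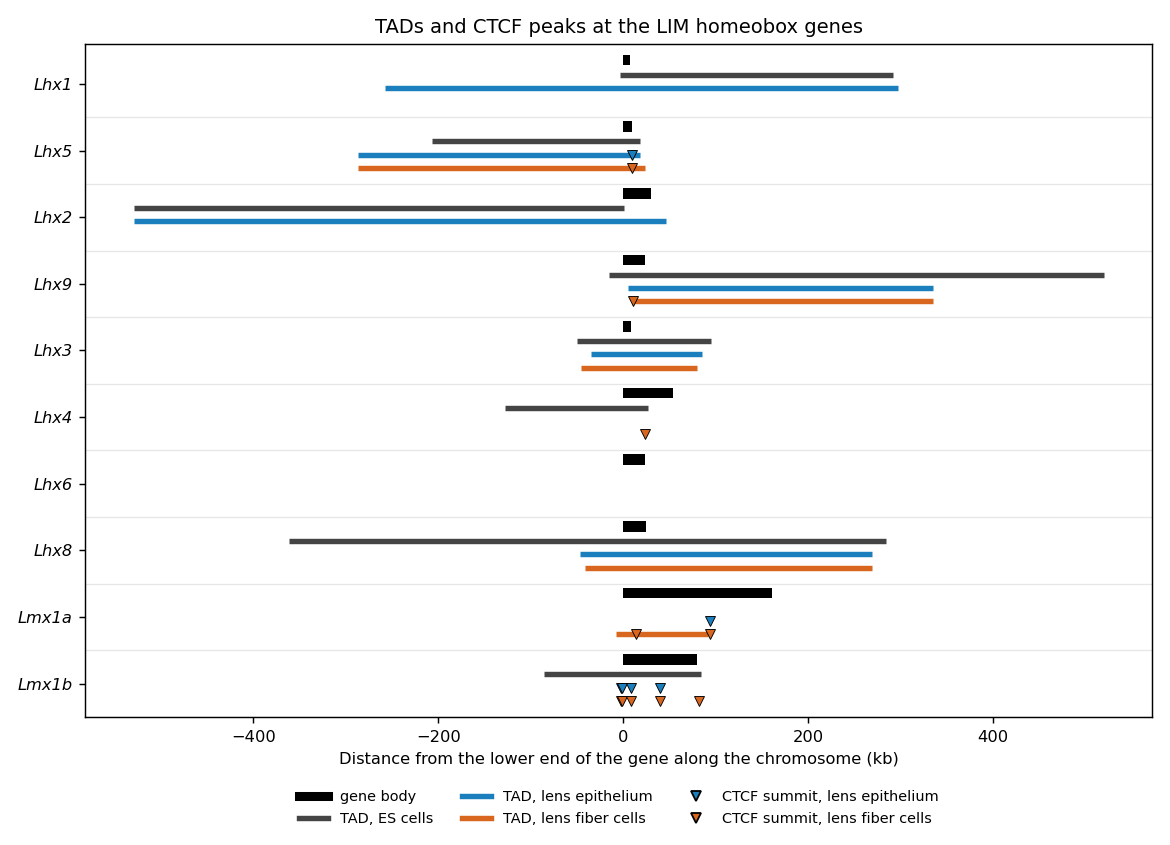
Gene bodies (black), TADs (lines) and CTCF peak summits (triangles) at the 10 LIM homeobox genes, by distance (kb) from the lower end of each gene along the chromosome, with ES cell CTCF not analysed here. Lhx6 has neither a TAD nor a peak, the ES cell TAD at Lhx2 stops at the gene where the lens epithelium TAD runs across it, and the lens TADs at Lhx9 begin inside the gene.

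CTCF peaks lay in about as large a share of these genes as of all genes. Lens epithelium had 6 peaks in 3 of the 10 genes, where 30.9% of protein-coding genes had one, and fiber cells had 10 in 5 genes, where 45.4% had one. All 6 epithelium peaks overlapped a fiber cell peak, as 72.8% of all epithelium peaks did, and 6 of the 10 fiber cell peaks overlapped an epithelium peak, as 50.1% did. The lists held 16433 and 23868 peaks, so that fiber cells had more in all. The median fold enrichment over background was 6.33 at these genes in epithelium, against 5.78 in the list, and 6.90 in fiber cells, against 6.44. With 1 sample per tissue, no difference between them could be tested.

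Lmx1b held the most peaks, with 4 in epithelium and 5 in fiber cells. The strongest of them had its summit past the end of the gene, at 33558424 in epithelium with a fold of 8.03 and at 33558462 in fiber cells with a fold of 10.9. It lay with 2 others in the gene-side anchor of the loop of 60 kb that both lens lists held. A peak listed in fiber cells alone had its summit at 33643281, 2.18 kb before the start of the gene, with a fold of 7.81. That summit lay in the anchor of the fiber cell loop of 150 kb, whose far anchor held 3 fiber cell peaks.

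The other peaks were at Lhx5, Lmx1a, Lhx9 and Lhx4. At Lhx5 the peak near the upper end of the gene on the chromosome had a fold of 5.44 in epithelium and 8.11 in fiber cells. At Lmx1a a peak within the gene had 6.77 and 8.74, and a second with a fold of 4.83 was listed in fiber cells alone. Lhx9 and Lhx4 had 1 peak each, in fiber cells alone, with folds of 7.69 and 5.02. The summit in Lhx9, at 138835525, lay just inside the border of the fiber cell TAD that began at 138835001. It was also in the anchor of the fiber cell loop of 330 kb to Dennd1b. Lhx1, Lhx2, Lhx3, Lhx6 and Lhx8 had no peak. The nearest summits lay 6.4 kb from Lhx2 in epithelium, with a fold of 9.97, and 17.4 kb from Lhx3, while Lhx1 and Lhx6 were over 70 kb from any summit in either tissue.

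CTCF peaks stood at the anchors of lens loops of these genes about as often as in the lists. In epithelium 1 of 11 loops had a peak of the same tissue at both anchors, 7 at 1 anchor and 3 at neither, where the list had 15.7%, 44.7% and 39.5%. In fiber cells the counts were 5, 3 and 2 of 10, where the list had 39.1%, 44.3% and 16.6%. The lens loops of Lhx2 anchored just past the gene, of 450 kb in both tissues and of 560 kb in fiber cells, had the peak 6.4 kb from the gene in that anchor. CTCF peaks of ES cells were not analysed here. Against the peaks of either lens tissue, the 28 ES cell loops above 3 Mb had a peak at both anchors in 5 cases, at 1 in 15 and at neither in 8, beside the 19.4%, 45.7% and 34.9% of all ES cell loops of that length. The 29 shorter loops had 5, 6 and 18, where all shorter ES cell loops had 36.7%, 42.1% and 21.2%.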

How the data were processed

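Hi-C of 6 samples (3 cell types with 2 replicates each) and CTCF ChIP-seq of 2 samples were used. The authors aligned Hi-C reads with BWA and Juicer to mm10, merged the replicates of each cell type and used Arrowhead for TADs and HiCCUPS (juicer_tools 2.13.06) for loops. Observed contacts, as deposited, are raw counts of the merged map. The expected contacts of the donut-shaped background, deposited as a score that can fall just below 0, and the FDR, a q-value, came from the authors' run of HiCCUPS. The authors called CTCF peaks with MACS2, and each deposited peak carries a score, a fold enrichment (ratio over background) and the −log10 of its p-value and q-value. TAD lists hold coordinates alone.

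Loops, TADs and peaks were joined to genes of the GRCm38.p6 RefSeq table (the build of mm10) in Python 3.11.15 (pandas 2.3.3, numpy 2.4.6, scipy 1.17.1). Plots used matplotlib 3.10.9. A partner overlapped the other anchor by at least 1 bp. Loops were shared when both midpoints lay within 10 kb. Intervals are exact 95% Poisson intervals, which cover counting error only. The joins were tested on simulated data. The members, the gene families and the cofactor list were chosen with earlier results of these data known. All 10 members are named, with the partner genes of loops above 3 Mb, of shared loops and of the named families, and cofactors with the most loops. Loops to 2 partner genes that are withheld are counted but not described. Counts at members are set beside the same counts over all genes, loops, anchors or peaks. With merged Hi-C lists and 1 ChIP-seq sample per tissue no test was made. Alternatives changed the widening, the anchor rule, the FDR, the anchor width, the largest loop, the sharing rules, the partner rule, the TAD rule and the peak threshold.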

Additional observations from a re-analysis of the deposited data

How the results depend on the processing

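Of 158 values recomputed under 15 alternatives, 132 stayed within 1.5 times the reported value. Of 180 counts of loops per gene and cell type 156 did, and 10 fell to 0, all but 1 of them in lens. These were Lhx2 in fiber cells and Lmx1b in epithelium without widening and with anchor midpoints in the gene, Lhx1 in fiber cells with midpoints and with anchors of 5 or 10 kb, Lmx1a in all 3 cell types with those anchors, and Lhx9 in fiber cells with an FDR below 0.01. Widening by 25 kb gave Lhx3 its 1 epithelium loop. ES cells kept more loops than either lens list at 8 of the 10 genes under each alternative for loops except anchors of 5 or 10 kb, where it was 7. That limit left 28 ES cell loops, 3 of them above 3 Mb, 11 with a partner of the named families and 2 between members, with 7 loops in lens epithelium, 0 of them with such a partner, and 5 in lens fiber cells. At most 20 Mb left 13 ES cell loops above 3 Mb and 16 with a partner of the named families. Without widening there were 7 loops in lens epithelium, and loops in another list numbered 2 in ES cells, 1 in epithelium and 3 in fiber cells. With anchor midpoints in the gene there were 7 loops in epithelium, 1 of them in another list, and 4 in fiber cells, 3 of them in another list. A tolerance of 25 kb gave 7, 8 and 8 shared loops. Requiring the whole gene left 3 TADs at 3 genes in lens fiber cells, and TADs of at least 200 kb left 5 TADs at 5 genes in ES cells and 3 at 3 in fiber cells. All of these but the wider tolerance and the widening by 25 kb keep fewer features by construction. No lens loop passed 3 Mb and no lens loop joined 2 of the genes under any alternative, which the rules that keep fewer features fix in advance. No paired analysis was possible because the replicates are merged in every Hi-C list and no result comes from a test.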
